A study of Mus musculus with 8 samples.

Results

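Inflammasome and pyroptosis genes were followed in mouse liver after concanavalin A (ConA), a lectin of plant origin used to provoke T cell-driven liver injury. They are 10 of the 21899 genes in the count table, taken by symbol as the sensors Nlrp3, Nlrc4, Naip2 and Naip5, the NLRP3 partner Nek7, the adaptor Pycard, the inflammatory caspases Casp1 and Casp4, the pore-forming gasdermin Gsdmd and the cytokine Il18. RNA was sequenced from 4 P2X4R-deficient and 4 wild-type livers, all from mice that had received ConA and all taken at 8 h. P2X4R, encoded by P2rx4, is a cation channel opened by extracellular ATP. The sample labels call its genotype a knockdown, while the series design gives P2X4R-/-. How the gene was altered, in which cells, and the strain, sex and age of the mice are not given there, and nothing states that the libraries are from separate animals. P-values therefore measure only the spread between these samples. Livers without ConA were not analysed here.

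An inflammasome is a protein platform that a cytosolic sensor builds on danger or microbial signals. The sensor recruits the adaptor ASC, encoded by Pycard, and caspase-1, which matures IL-1beta and IL-18 and cleaves gasdermin D into a membrane pore. Death through that pore is called pyroptosis. NLRP3 responds to potassium loss, for which extracellular ATP acting on P2X channels is a classical trigger, and needs the kinase NEK7. Mouse caspase-4, also known as caspase-11, binds bacterial lipopolysaccharide directly and cleaves gasdermin D without a sensor of this kind. In liver, Kupffer cells, the resident macrophages, are a known site of inflammasome assembly. These steps act on protein, so RNA levels show the supply of components and not their activation.

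Library totals ran from 15445285 to 16604190 reads. P2rx4 was lower in every deficient library, at 24.7 ± 5.33 CPM in deficient livers, against 55.8 ± 8.31 CPM in wild-type livers (SD, n = 4 each; edgeR adjusted p = 0.00481). CPM is a read count set to a common library total after TMM scaling, which aligns the libraries on the bulk of their genes. A floor of 3 reads, the limit that a count of 0 allows, was 0.172 to 0.211 CPM. Albumin (Alb), the defining hepatocyte gene, averaged 67831 ± 9731 CPM in deficient livers, against 88796 ± 5297 CPM in wild-type livers (SD, n = 4 each; edgeR adjusted p = 0.0884). Fewer cells of a type and less RNA per cell cannot be told apart in whole liver.

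None of the inflammasome and pyroptosis genes passed the test between genotypes, and the 2 groups of libraries overlapped for all 10. The expression filter kept 7 of them, and Pycard, Nlrc4 and Naip5 were below it. Of all genes past that filter 24.9% had groups without overlap, and 7 genes are too few to read a difference from that share. Of these 7, edgeR's quasi-likelihood test called 0 at an adjusted p under 0.05, against 19.9% of all 11380 genes tested. The count was also 0 with DESeq2, with limma voom, and with limma on FPKM, which tested 5 of them. At an unadjusted p under 0.05, which 35.2% of all genes reached in edgeR, it was 1 in edgeR, Il18, 2 in DESeq2, Il18 and Nlrp3, and 0 in both limma tests. The median log2 fold change of the 7 was -0.35, beside a median of -0.0015 over all genes tested. The largest estimates were lower values of Nlrp3 and higher values of Casp1 in deficient livers, each with an interval that included no difference.

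**Figure D1:**
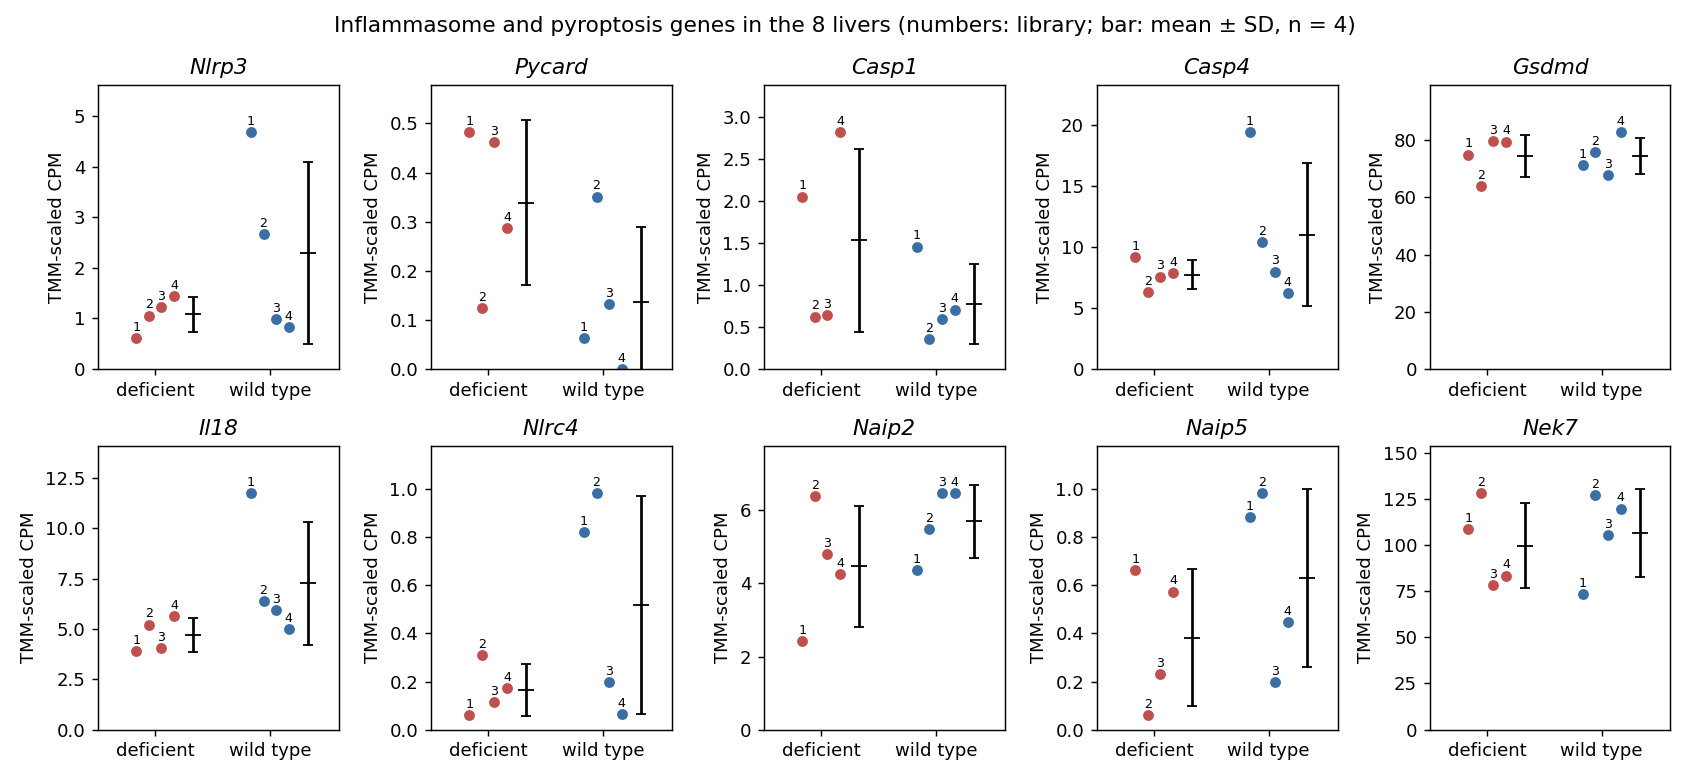
TMM-scaled CPM of each of the 10 genes in deficient (red) and wild-type (blue) libraries, 1 point per library with its number, and the mean ± SD of 4 as a bar. The groups overlap in every panel, and wild-type library 1 stands above the rest for Nlrp3, Casp4 and Il18.

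Nlrp3, the sensor (ENSMUSG00000032691; chromosome 11, 59432394 to 59457782, plus strand, as the table lists it), had 10, 17, 21 and 25 reads in deficient libraries 1 to 4, against 74, 38, 15 and 13 reads in wild-type libraries 1 to 4. On the CPM scale that was 0.603, 1.06, 1.21 and 1.44 in deficient livers, against 4.68, 2.67, 0.989 and 0.833 in wild-type livers. All deficient libraries lay between the pair of high and the pair of low wild-type libraries except deficient 1, which was below every other. The mean was 1.08 ± 0.352 CPM in deficient livers, against 2.29 ± 1.79 CPM in wild-type livers (SD, n = 4 each). The log2 fold change was -1.08 (SE 0.54, edgeR adjusted p = 0.175), with a 95% interval from 0.209 to 1.07 times the wild-type level. Without wild type 1 it was -0.48 (adjusted p = 0.528).

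Il18, the cytokine that caspase-1 matures (ENSMUSG00000039217; chromosome 9, 50466127 to 50493140, plus strand), had 3.92, 5.21, 4.05 and 5.63 CPM in deficient libraries 1 to 4, against 11.8, 6.39, 5.93 and 4.996 CPM in wild-type libraries 1 to 4. Deficient 2 and 4 exceeded wild type 4, and wild type 1 stood far above the others. The mean was 4.70 ± 0.849 CPM in deficient livers, against 7.27 ± 3.05 CPM in wild-type livers (SD, n = 4 each). Its fold change on the log2 scale was -0.63 (SE 0.28, edgeR adjusted p = 0.133), with a 95% interval from 0.423 to 0.990 times the wild-type level, and -0.31 without wild type 1 (adjusted p = 0.372). Its listed span overlaps that of Bco2 on the minus strand, which had 68 reads in all deficient and 259 in all wild-type libraries together. Summed the same way, Il18 itself had 317 deficient and 445 wild-type reads. Whether the counting used strand is not given in the sources used here, so reads of overlapping genes cannot be told apart.

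Casp4, the lipopolysaccharide-binding caspase (ENSMUSG00000033538; chromosome 9, 5308828 to 5336783, plus strand), had 9.16, 6.27, 7.57 and 7.86 CPM in deficient libraries 1 to 4, against 19.4, 10.4, 7.97 and 6.21 CPM in wild-type libraries 1 to 4. Apart from wild type 1, the libraries of both groups covered much the same range. The mean was 7.72 ± 1.19 CPM in deficient livers, against 10.997 ± 5.86 CPM in wild-type livers (SD, n = 4 each). On the log2 scale the fold change was -0.51 (SE 0.31, edgeR adjusted p = 0.268), with a 95% interval from 0.439 to 1.12 times the wild-type level, and -0.10 without wild type 1 (adjusted p = 0.796).

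Wild type 1 was thus the highest of the 8 libraries for Nlrp3, Casp4 and Il18, at 1.75, 1.87 and 1.84 times the next highest library on the CPM scale. Kupffer cell markers had the same order among wild-type libraries. The summed level of 12 such markers was 60.7, 42.8, 52.1 and 61.4 CPM in deficient libraries 1 to 4, against 187, 90.8, 65.1 and 56.8 CPM in wild-type libraries 1 to 4. Wild type 1 was highest for 11 of the 12, and Folr2 and Cd163 had 0 reads in at least 1 library. Of the 10 Kupffer markers tested 3 fell and 0 rose, with a median log2 fold change of -0.93. Those that fell were Clec4f, Cd5l and Adgre1, named after their values were seen. Clec4f lost the call in 12 of 17 alternatives, Adgre1 in 10 of 15 and Cd5l in 4 of 17. Without wild type 1 the log2 fold change was -0.60 for Clec4f (adjusted p = 0.118), -0.98 for Adgre1 (adjusted p = 0.0950) and -0.74 for Cd5l (adjusted p = 0.0275), against -1.03, -1.24 and -1.34 with it. C1qa and C1qb, highest of the list in FPKM, did not pass (adjusted p = 0.2505 and 0.172). Wild type 1 was highest for 6 of 14 monocyte and macrophage genes. Their sum was 947 to 1236 CPM in deficient livers, against 655 to 1490 CPM in wild-type livers. Wild type 1, at 655 CPM, had the lowest such sum of the 8 libraries. It was highest for 0 of 15 neutrophil genes, whose sum was also lowest there, at 3633 CPM. The sum of 8 endothelial genes also declined from wild type 1 to 4, at 102, 79.4, 43.5 and 39.3 CPM. In deficient libraries 1 to 4 that sum was 80.3, 45.6, 55.6 and 74.5 CPM. T and NK cell and B cell sums were also highest in wild type 1, at 60.5 and 4.80 CPM. Sums of hepatocyte genes and of stellate and bile duct genes were highest in wild type 2. The part of these cells in the levels of Nlrp3, Casp4 and Il18 was not tested.

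**Figure D2:**
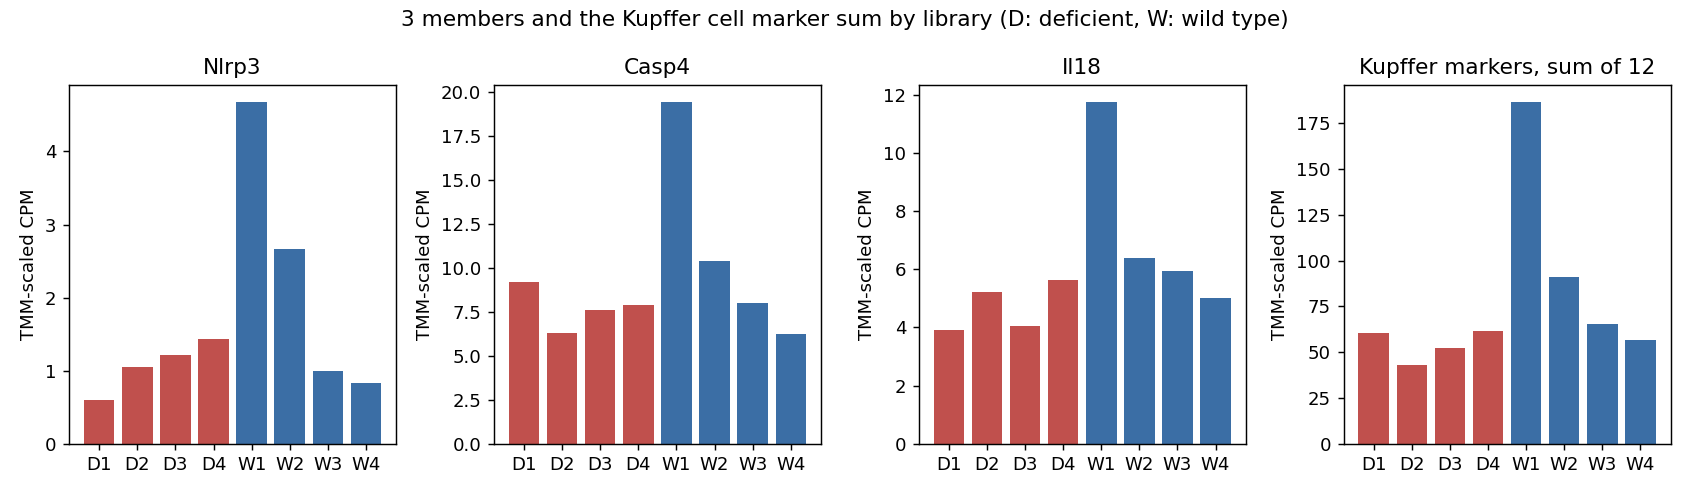
TMM-scaled CPM (bars from 0) of Nlrp3, Casp4, Il18 and the sum of 12 Kupffer cell markers in deficient libraries 1 to 4 (D1 to D4, red) and wild-type libraries 1 to 4 (W1 to W4, blue). W1 is the highest bar in all 4 panels, and W2 the second highest.

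The stretches of DNA upstream of the start sites of these 3 genes are shown because their levels peaked in the same library. They are RefSeq promoter entries on GRCm38.p6, read 5′ to 3′ on the plus strand, each giving the 250 bases before the RefSeq start. For Il18, and for Naip2, Naip5 and Nek7, the bases just after that start were not found in a GENCODE M21 protein-coding transcript of the gene, so those entries are not shown to end at a transcript start of that annotation. Capitals mark matches on either strand to the NF-kB consensus, with overlapping matches merged. NF-kB is the transcription factor that primes inflammasome genes in macrophages.
Casp4, chr9:5308599-5308848: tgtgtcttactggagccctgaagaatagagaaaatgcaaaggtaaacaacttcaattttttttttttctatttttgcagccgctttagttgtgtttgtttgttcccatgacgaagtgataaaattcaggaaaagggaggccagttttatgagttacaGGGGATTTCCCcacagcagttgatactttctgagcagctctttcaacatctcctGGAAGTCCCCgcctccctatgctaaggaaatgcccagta
Nlrp3, chr11:59541319-59541568: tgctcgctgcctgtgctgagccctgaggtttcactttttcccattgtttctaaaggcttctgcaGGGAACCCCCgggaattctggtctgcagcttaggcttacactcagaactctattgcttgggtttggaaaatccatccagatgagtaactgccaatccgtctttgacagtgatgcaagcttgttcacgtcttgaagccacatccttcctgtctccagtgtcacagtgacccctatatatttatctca
Il18, chr9:50554450-50554699: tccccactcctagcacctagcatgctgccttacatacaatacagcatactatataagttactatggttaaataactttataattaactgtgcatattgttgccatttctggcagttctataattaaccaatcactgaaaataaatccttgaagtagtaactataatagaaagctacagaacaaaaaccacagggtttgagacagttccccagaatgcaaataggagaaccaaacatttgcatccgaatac

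The Casp4 entry shown held matches that begin 93 and 39 bases before the start, and the Nlrp3 entry shown held a match 186 bases before it. The Il18 entry and another Nlrp3 entry, which starts downstream, held none. Entries were found for 9 of the 10 genes, and the consensus was in at least 1 entry of 3 genes (Casp4, Nlrp3 and Naip5), against 8.23% of all 27025 genes with an entry. Counted by entry, 4 of 11 held it, against 7.25% of all 32851. These include another Casp4 entry, chr9:5308610-5308859, which overlaps the one shown and holds the same matches. The genes and entries are too few to read a difference from these shares. The interferon-response core, a pair of GAAA with 2 bases of any kind between, searched on both strands, was in 0 of the 11 entries, against 2.98% of all entries. A match is a run of letters and not evidence of binding.

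Casp1, the caspase of the canonical inflammasome (ENSMUSG00000025888; chromosome 9, 5298508 to 5307290, plus strand), lies next to Casp4 in the table. It had 34, 10, 11 and 49 reads in deficient libraries 1 to 4, against 23, 5, 9 and 11 reads in wild-type libraries 1 to 4. Deficient 4 and 1 were highest, while deficient 2 and 3 lay among the wild-type libraries. The mean was 1.53 ± 1.09 CPM in deficient livers, against 0.776 ± 0.475 CPM in wild-type livers (SD, n = 4 each). The estimate was a log2 fold change of 0.97 (SE 0.59, edgeR adjusted p = 0.266), with a 95% interval from 0.807 to 4.73 times the wild-type level. It was 0.47 without deficient 4 and 1.44 without wild type 1. Casp1 and Casp4 transcripts share no identical run longer than 12 bases in the GENCODE M21 annotation.

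Gsdmd, the pore-forming substrate (ENSMUSG00000022575; chromosome 15, 75734176 to 75739257, plus strand), was the highest of these genes in FPKM and had the smallest standard error of the 7 tested. Deficient libraries 1 to 4 had 75.0, 64.0, 79.5 and 79.5 CPM, against 71.3, 75.7, 67.9 and 82.8 CPM in wild-type libraries 1 to 4. Both groups filled the same range. The mean was 74.5 ± 7.32 CPM in deficient livers, against 74.4 ± 6.42 CPM in wild-type livers (SD, n = 4 each). The estimated log2 fold change was 0.0019 (SE 0.14, edgeR adjusted p = 0.994), with a 95% interval from 0.808 to 1.24 times the wild-type level. Scaling by library size alone gave 0.15, and that scaling moved the log2 fold changes of all genes tested by a median of 0.145.

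Nek7, the kinase that NLRP3 requires (ENSMUSG00000026393; chromosome 1, 138410613 to 138547879, minus strand), had 109, 128, 78.4 and 83.4 CPM in deficient libraries 1 to 4, against 73.5, 127, 105 and 120 CPM in wild-type libraries 1 to 4. Here wild type 1, which was high for Nlrp3, was the lowest library. The mean was 99.6 ± 23.1 CPM in deficient livers, against 106 ± 23.7 CPM in wild-type livers (SD, n = 4 each). The log2 fold change was -0.095 (SE 0.21, edgeR adjusted p = 0.783), with a 95% interval from 0.681 to 1.29 times the wild-type level. Its sign changed with scaling, to 0.053 with library size alone.

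NAIP proteins bind bacterial ligands and hand them to NLRC4, which needs no ASC to engage caspase-1. Naip2, whose product recognises a rod protein of bacterial secretion systems (ENSMUSG00000078945; chromosome 13, 100280571 to 100338600, minus strand), had 2.41, 6.39, 4.80 and 4.25 CPM in deficient libraries 1 to 4, against 4.36, 5.48, 6.46 and 6.47 CPM in wild-type libraries 1 to 4. Deficient 1 was the lowest library, and deficient 2 was close to the highest. Its mean was 4.46 ± 1.64 CPM in deficient livers, against 5.69 ± 1.001 CPM in wild-type livers (SD, n = 4 each). The log2 fold change was -0.35 (SE 0.29, edgeR adjusted p = 0.414), and -0.15 without deficient 1. Naip5, the flagellin receptor (ENSMUSG00000071203; chromosome 13, 100348247 to 100382831, minus strand), had 11, 1, 4 and 10 reads in deficient libraries 1 to 4, against 14, 14, 3 and 7 reads in wild-type libraries 1 to 4. Nlrc4, the partner of both (ENSMUSG00000039193; chromosome 17, 74732433 to 74766137, minus strand), had 1, 5, 2 and 3 reads in deficient libraries 1 to 4, against 13, 14, 3 and 1 reads in wild-type libraries 1 to 4. For both genes wild type 1 and 2 held the most reads, and wild type 3 and 4 lay within the range of the deficient libraries.

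Naip genes are close relatives, and their counts are uncertain. Of the stretches of 50 bases in the longest Naip5 transcript of GENCODE M21, 8.83% occur in Naip2, 13.8% in Naip1 and 22.3% in Naip6. The longest run shared by the longest Naip2 and Naip5 transcripts is 140 bases, all coding, and is shown because a read from it could belong to either gene. It lies on the minus strand of GRCm38 at chr13:100222974-100223113 in Naip5 and at chr13:100161642-100161781 in Naip2.
Naip2 and Naip5, shared: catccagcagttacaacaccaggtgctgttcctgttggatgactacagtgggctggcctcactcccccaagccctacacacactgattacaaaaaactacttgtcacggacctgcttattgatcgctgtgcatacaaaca

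Pycard, which encodes the adaptor ASC (ENSMUSG00000030793; chromosome 7, 127588880 to 127593039, minus strand), had the lowest mean FPKM of the 10 genes in wild-type livers. Its wild-type libraries overlapped those of Nlrc4, the next lowest. It had 8, 2, 8 and 5 reads in deficient libraries 1 to 4, against 1, 5, 2 and 0 reads in wild-type libraries 1 to 4. Deficient 1 and 3 held the most reads and wild type 4 none. In reads pooled over 4 libraries each, the deficient level was 2.59 times the wild-type level for Pycard, with a 95% counting interval of 1.12 to 6.71. It was 0.320 times for Nlrc4, with an interval of 0.145 to 0.655, and 0.617 times for Naip5, with an interval of 0.360 to 1.04. These intervals cover counting error only and leave out the spread between livers. Over libraries, exact two-sided permutation tests of log2 CPM gave p = 0.143 for Pycard, p = 0.257 for Nlrc4 and p = 0.343 for Naip5 (n = 4 each, smallest possible 0.0286). With no expression filter, edgeR gave adjusted p = 0.396, 0.259 and 0.564 for these genes in the same order.

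Per gene length, the components differed widely in level. In FPKM, reads set to a common gene length and library total, Gsdmd averaged 33.04 ± 4.03 in deficient livers, against 29.8 ± 2.93 in wild-type livers (SD, n = 4 each). Nek7 followed at 14.2 ± 2.98 FPKM in deficient livers, against 13.6 ± 2.72 FPKM in wild-type livers, and then came Il18, Casp4 and Naip2 in both groups. Nlrp3 averaged 0.279 ± 0.0911 FPKM in deficient livers, against 0.545 ± 0.446 FPKM in wild-type livers. Casp1 averaged 0.515 ± 0.367 FPKM in deficient livers, against 0.239 ± 0.157 FPKM in wild-type livers, so these neighbours stood in opposite order in the 2 groups, with overlapping libraries in each. Pycard averaged 0.0949 ± 0.0487 FPKM in deficient livers, against 0.0334 ± 0.0367 FPKM in wild-type livers. In deficient livers the libraries of neighbouring genes in this order were apart from Gsdmd down to Naip2, and between Nlrp3 and Pycard. In wild-type livers only Gsdmd and Nek7, and Casp4 and Naip2, were apart. The remaining neighbours overlapped. FPKM here rests on the gene length listed with the counts, 3136 bases for Casp1 and 3710 for Casp4. The longest GENCODE M21 protein-coding transcripts of these genes are shorter, with 1448 and 1386 stretches of 50 bases. For Naip5 the listed length is 5204 bases, with 5155 such stretches. The order between genes therefore depends on the listed lengths.

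**Figure D3:**
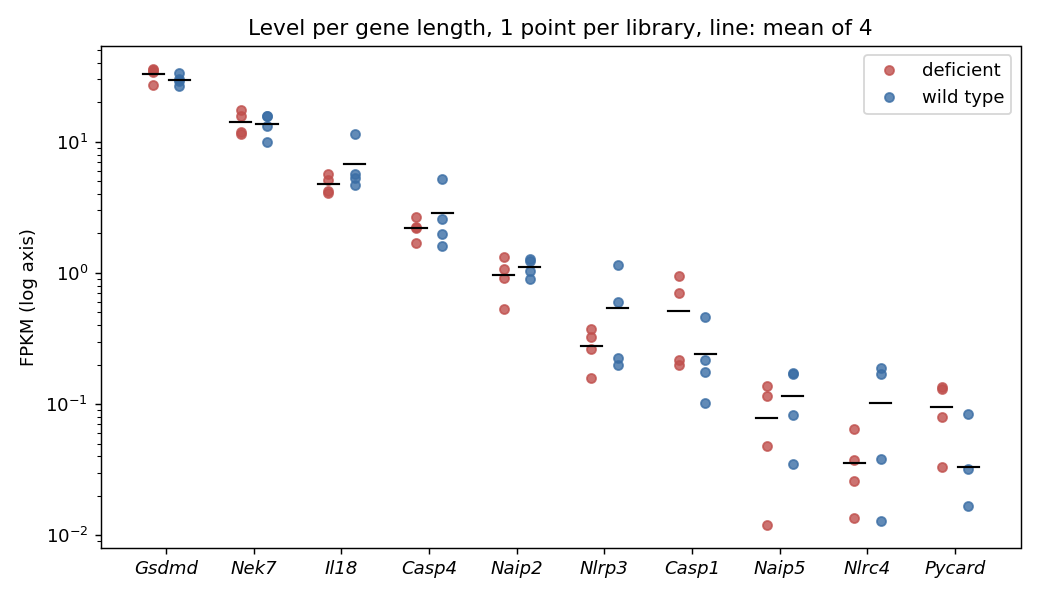
FPKM on a log axis for each gene in deficient (red) and wild-type (blue) libraries, 1 point per library and a line at the mean of 4. Gsdmd and Nek7 lie above 9 FPKM in every library, while Nlrc4, Naip5 and Pycard lie below 0.2, and the wild-type library with 0 Pycard reads has no point.

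Around these genes, part of a wider list of inflammasome and IL-1 family genes was lower in deficient livers. Of 80 listed genes 53 were tested, of which 14 fell and 1 rose, against 10.6% of all genes called lower and 9.27% called higher. The list was chosen with earlier results of these data known, so these counts describe the list and do not test the pathway. The median log2 fold change of the 53 was -0.37. Without wild type 3, 6 fell, and without deficient 3, 7 fell. It was 8 without deficient 1 and 8 without wild type 4. With library size alone 9 fell and 5 rose. Stk4, the gene that rose, was not called without deficient 3 or without wild type 3, and without deficient 2 another joined it, making 2.

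Among 15 other sensors 7 were tested, 3 fell and 0 rose. Nlrp6, a NOD-like receptor known from gut epithelium, had 45.4, 50.8, 59.2 and 55.1 CPM in deficient libraries 1 to 4, against 122, 89.9, 106 and 87.9 CPM in wild-type libraries 1 to 4. Every deficient library was below every wild-type library, and the log2 fold change was -0.95 (SE 0.16, edgeR adjusted p = 0.00546). At 10.9 ± 1.33 FPKM in deficient livers, against 19.1 ± 3.59 FPKM in wild-type livers (SD, n = 4 each), it exceeded Nlrp3 per length in both groups. Nod1, a peptidoglycan receptor that signals to NF-kB rather than to caspase-1, fell by 1.01 (SE 0.25, adjusted p = 0.0188). Leaving out deficient 3 or wild type 3 gave adjusted p = 0.0552 or 0.0537. Dhx33, an RNA helicase, fell by 0.53 (SE 0.17, adjusted p = 0.0473), a call that 11 of 17 alternatives did not keep. Nlrp12, a NOD-like receptor that dampens NF-kB signalling, averaged 98.9 ± 8.39 CPM in deficient livers, against 81.8 ± 18.2 CPM in wild-type livers (SD, n = 4 each; edgeR adjusted p = 0.300). Aim2, the DNA sensor, was below the filter, with 20 reads over the deficient libraries and 44 over the wild-type ones, and is named here after its values were seen.

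Among regulators of assembly 22 of 28 were tested, 5 fell and 1 rose. Txnip, a thioredoxin-binding protein that can bind NLRP3, had 104, 143, 48.7 and 91.6 CPM in deficient libraries 1 to 4, against 256, 423, 309 and 395 CPM in wild-type libraries 1 to 4, a log2 fold change of -1.83 (SE 0.29, edgeR adjusted p = 0.00474). Hsp90ab1, a chaperone that holds NLRP3 in a responsive state, fell by 0.61 (SE 0.14, adjusted p = 0.0153). Both falls passed in all 17 alternatives. Irf1, an interferon-induced transcription factor, fell by 1.30 (SE 0.33, adjusted p = 0.0195). Leaving out deficient 3 gave adjusted p = 0.0537, and leaving out wild type 3 gave adjusted p = 0.0523. Gbp5, a guanylate-binding protein, fell by 1.14 (SE 0.28, adjusted p = 0.0176) and had adjusted p = 0.0511 without deficient 3. Nlrc5, whose best known role is to activate MHC class I genes, fell by 0.74 (SE 0.23, adjusted p = 0.0448), and 11 of 17 alternatives did not keep the call. Stk4, a Hippo pathway kinase, rose by 0.74 (SE 0.18, adjusted p = 0.0182), and adjusted p = 0.0517 or 0.0525 when deficient 3 or wild type 3 was left out. P2rx7, the ATP-gated channel best known for activating NLRP3, is named after its values were seen and averaged 1.22 ± 0.570 CPM in deficient livers, against 1.02 ± 0.199 CPM in wild-type livers (SD, n = 4 each; edgeR adjusted p = 0.693). Gbp2, another guanylate-binding protein, averaged 1543 ± 320.1 CPM in deficient livers, against 1927 ± 566.9 CPM in wild-type livers (SD, n = 4 each; edgeR adjusted p = 0.354).

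**Figure D4:**
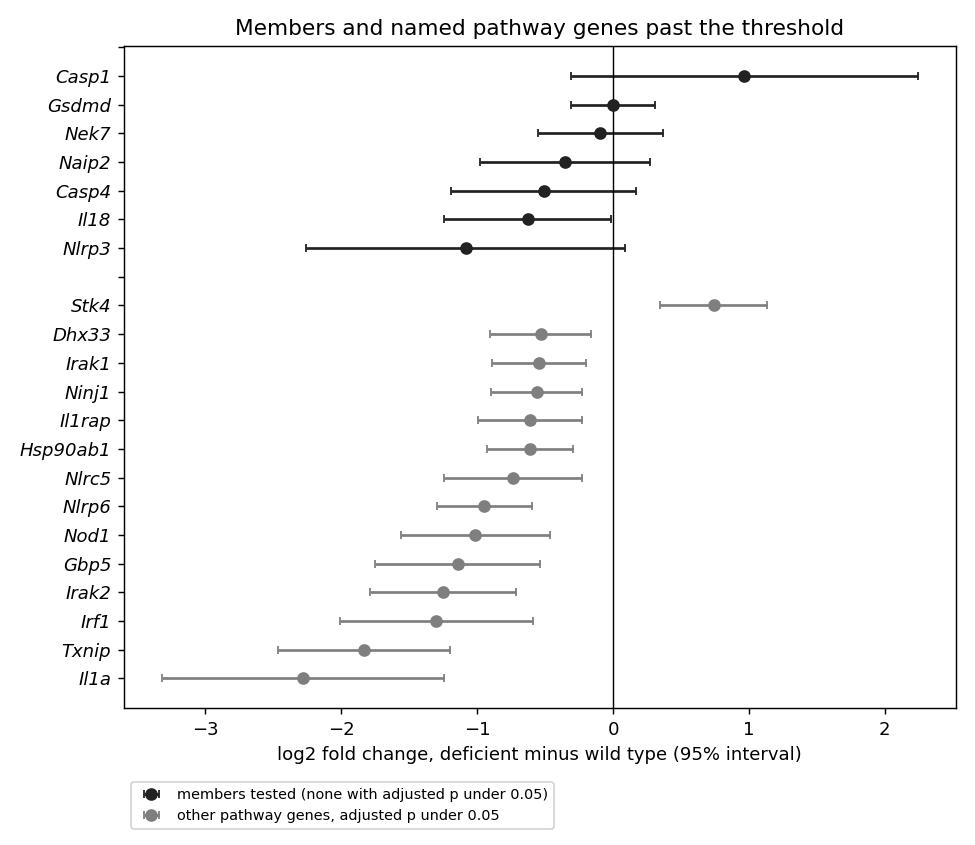
Log2 fold changes, deficient minus wild type, with 95% intervals from the edgeR test, for the 7 members tested (black) and 14 other pathway genes with an adjusted p under 0.05 (grey, chosen for passing). Gsdmd and Nek7 sit nearest 0 with the shortest intervals of the members, that of Nek7 from -0.55 to 0.37. Nlrp3 and Casp1 have the longest intervals of the members.

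Among genes of execution and pores 8 of 18 were tested, 2 fell and 0 rose. Ninj1, one of those that fell, ruptures the plasma membrane late in lytic death and had 101, 138, 138 and 123 CPM in deficient libraries 1 to 4, against 204, 168, 187 and 179 CPM in wild-type libraries 1 to 4. Its groups did not overlap and it fell by 0.56 (SE 0.15, adjusted p = 0.0265), while 8 of 17 alternatives did not keep the call. Chmp4b, a membrane repair subunit, averaged 290 ± 19.2 CPM in deficient livers, against 264 ± 32.6 CPM in wild-type livers (SD, n = 4 each; edgeR adjusted p = 0.567). Of the gasdermins other than Gsdmd, Gsdme was the only one tested, at 6.999 ± 1.91 CPM in deficient livers, against 8.19 ± 1.05 CPM in wild-type livers (SD, n = 4 each; edgeR adjusted p = 0.5001, named after its values were seen).

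Among genes of IL-1 and IL-18 signalling 16 of 19 were tested, 4 fell and 0 rose. Il1b, the other cytokine that caspase-1 matures, had 2.29, 1.86, 2.02 and 4.48 CPM in deficient libraries 1 to 4, against 11.3, 3.65, 2.77 and 2.11 CPM in wild-type libraries 1 to 4. Like Nlrp3 it was highest in wild type 1, and it did not pass (log2 fold change -0.90, SE 0.51, edgeR adjusted p = 0.233). Without wild type 1 it was -0.10 (adjusted p = 0.871). Il1a, an alarmin released by dying cells, had 0.663, 1.61, 0.867 and 1.15 CPM in deficient libraries 1 to 4, against 10.998, 3.58, 3.49 and 2.88 CPM in wild-type libraries 1 to 4. It too was highest in wild type 1, but here the groups did not overlap and the log2 fold change was -2.28 (SE 0.48, adjusted p = 0.0104). It was -1.64 without wild type 1 (adjusted p = 0.0182), and -1.06 in limma on FPKM with a pseudocount of 1, which understates low genes. Irak2, a kinase below the IL-1 and Toll-like receptors, fell by 1.25 (SE 0.25, adjusted p = 0.00888). The calls of Il1a and Irak2 held in all 17 alternatives. Il1rap, the shared receptor chain, and the kinase gene Irak1 fell by 0.61 (SE 0.17, adjusted p = 0.0310) and 0.54 (SE 0.16, adjusted p = 0.0322), and 8 and 10 of 17 alternatives did not keep these calls. The IL-1 receptor antagonist Il1rn averaged 653 ± 105 CPM in deficient livers, against 656 ± 143 CPM in wild-type livers (SD, n = 4 each; edgeR adjusted p = 0.984). The type I receptor Il1r1 averaged 517 ± 49.9 CPM in deficient livers, against 657 ± 115 CPM in wild-type livers (SD, n = 4 each; edgeR adjusted p = 0.166). Il18bp, the soluble inhibitor of IL-18, was named after its values were seen, at 20.9 ± 5.49 CPM in deficient livers, against 14.2 ± 2.60 CPM in wild-type livers (SD, n = 4 each; edgeR adjusted p = 0.0898).

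Over all cell types together, Kupffer cells included, markers were called about as often as all genes. Over all 64 markers tested 4 rose (6.25%) and 9 fell (14.1%), against 9.27% and 10.6% of all genes. Of 11 neutrophil genes tested Lcn2, Mmp8 and Cxcr2 rose and 0 fell. All 11 had a positive log2 fold change, with a median of 0.75, while all 10 Kupffer markers tested had a negative one. The sum of all 15 neutrophil genes was 6934 to 7998 CPM in deficient livers, against 3633 to 6062 CPM in wild-type livers. Most of it was Lcn2, which hepatocytes also make. S100a9, a neutrophil calprotectin subunit, averaged 60.9 ± 23.0 CPM in deficient livers, against 30.9 ± 19.8 CPM in wild-type livers (SD, n = 4 each; edgeR adjusted p = 0.110). Ly6g, Elane, Mpo and Cxcr1 had 0 reads in at least 1 library. Of 12 monocyte and macrophage genes Chil3 rose and Mrc1 and Csf1r fell. Of 6 T and NK cell genes Gzma fell, of 7 endothelial genes Clec4g fell, and of 9 stellate and bile duct genes Reln and Sox9 fell. These marker genes were named after their values were seen. Of 17 alternatives, Gzma lost the call in 11, Csf1r in 9, Chil3 and Mrc1 in 7 each, Cxcr2 in 6, Lcn2 in 5, Sox9 in 3, Mmp8 and Clec4g in 2 each and Reln in 0. With deficient 1 left out 1 marker rose, with deficient 4 left out 0 rose, and with wild type 1, 2, 3 or 4 left out 9, 7, 1 or 2 rose. With deficient 2, 3 or 4 left out 4, 2 or 5 fell, and with wild type 1 or 2 left out 4 or 3 fell. Of 8 hepatocyte genes and 1 B cell gene 0 passed in edgeR, with 4 and 0 at an unadjusted p under 0.05. The part of cell numbers in the levels of inflammasome genes was not tested.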

How the data were processed

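Liver RNA was polyadenylate-selected and sequenced on an Illumina instrument, per the labels' protocols. The authors deposited raw read counts and FPKM values per gene and library, per the file headers. The submitters' processing notes name cutadapt and HISAT2 2.0.5. Coordinates are as the table lists them, the genome build, counting program and strand use not being given in the sources used here.

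Groups follow the genotype in the labels. The deposited counts were fitted in edgeR 4.0.16 (R 4.3.3), quasi-likelihood, scaled by TMM after filterByExpr and without covariates, leaving 11380 of 21899 genes, with Benjamini-Hochberg adjustment over all of them and a threshold of 0.05. The standard error is the fold change divided by the square root of the F statistic. Alternatives used DESeq2 1.42.0, limma 3.58.1 (voom, or FPKM plus 1 or 0.1 on the log2 scale, genes at 0.5 FPKM or more in 4 libraries), other scaling and filters, a replicate block, and each library left out.

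Members and gene lists were chosen with earlier results of these data known. Named pathway genes were those past the threshold, up to 6 a list, the 2 with most FPKM in each list, and Il1b, Il1a and Txnip by role, and of each marker list the 2 with most FPKM. A gene that this rule takes in is not reported here. Of the marker lists, the text gives the counts and a few examples. Of 80 pathway genes 78 matched the table, and of 84 markers 82. Counting intervals are exact binomial at 95%. Replicate libraries differed by more than sampling noise. Promoters are from RefSeq (GRCm38.p6) and transcripts from GENCODE M21.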

Additional observations from a re-analysis of the deposited data

How the results depend on the processing

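The number of inflammasome and pyroptosis genes called was 0 in each direction in all 17 alternatives, which tested 5 to 10 of them, and the lowest adjusted p of any was 0.0931, for Il18 without wild type 4. Gsdmd and Nek7 changed sign around 0, Gsdmd at -0.0051 with DESeq2 and from -0.045 to 0.070 with a library left out, and Nek7 at 0.053 with library size alone, 0.049 and 0.052 in limma on FPKM with a pseudocount of 1 and 0.1, and from -0.25 to 0.0073 with a library left out. The number of pathway genes called higher was 2 with DESeq2, 5 with library size alone and 4 in limma on FPKM with either pseudocount, and from 0 to 2 with a library left out. The number called lower was 9 with library size alone and in limma on FPKM with either pseudocount, and from 6 to 15 with a library left out. Of the markers, 4 fell with library size alone and 3 in limma on FPKM with either pseudocount, and with a library left out 0 to 9 rose and 2 to 8 fell. Of all genes, 1731 rose with library size alone and 1602 and 1594 in limma on FPKM with a pseudocount of 1 and 0.1, and with a library left out 454 to 1079 rose and 528 to 1309 fell, both fewest without wild type 3. The share of higher genes among all called was 46.6% with TMM, 67.2% with library size alone and 66.3% in limma on FPKM with a pseudocount of 1. Gene by gene, log2 fold changes exceeded those of the main fit by a median of 0.145 and 0.123 in the latter settings. These medians are over the genes tested in both fits. The cause of these changes was not tested. Deviations of same-numbered libraries correlated at r from -0.11 to 0.13, and those of differently numbered libraries at r from -0.32 to 0.33. This check cannot tell whether libraries of the same number share more than that number. With the replicate block 2 markers rose, and 0 of the 7 members tested were called. At this depth a gene with 0 reads could be at up to 0.172 to 0.211 CPM, as for Pycard in wild type 4.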

Other observations

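Naip1, a relative of Naip2 and Naip5, was chosen after its values were seen. It was below the expression filter, with 7, 2, 5 and 8 reads in deficient libraries 1 to 4, against 0, 1, 0 and 1 reads in wild-type libraries 1 to 4. Pooled over libraries the deficient level was 9.93 times the wild-type level, with a 95% counting interval of 2.44 to 87.1 that covers counting error only. Over libraries it did not pass, as edgeR with no expression filter gave adjusted p = 0.0646. Of the stretches of 50 bases in the longest Naip5 transcript 13.8% also occur in Naip1, and a read from them could belong to either gene. The share of Naip1 that occurs in its relatives was not measured.

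Other genes of the pathway lists that did not pass also peaked in wild type 1. Mefv, which encodes the sensor pyrin, had 1.27, 1.18, 1.56 and 2.81 CPM in deficient libraries 1 to 4, against 6.26, 1.97, 1.32 and 1.47 CPM in wild-type libraries 1 to 4. Il18rap, a chain of the IL-18 receptor, had 1.63, 2.55, 1.16 and 2.35 CPM in deficient libraries 1 to 4, against 9.16, 2.74, 1.38 and 1.09 CPM in wild-type libraries 1 to 4. Both were chosen after their values were seen.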
